A study of Saccharomyces cerevisiae with 2 samples.

Results

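The 10 histone genes of Saccharomyces cerevisiae were followed through the genome conformation capture (GCC) networks of cells grown on glycerol lactate or on galactose. GCC cross-links chromatin, cuts it with the restriction enzyme MspI, ligates the ends and counts each sequenced joint as 1 count for a pair of MspI fragments. A nuclear fragment was taken as a histone fragment where its annotation named HTA1, HTB1, HTA2, HTB2, HHT1, HHF1, HHT2, HHF2, HTZ1 or HHO1 as a whole word, which gave 24 of 13639 listed nuclear fragments. Of these, 19 overlapped a histone gene and 5 lay in the gap beside one. All 24 occurred among the 13247 nuclear fragments outside the rDNA that had uniquely mapped counts, and fragments of that set within 20% of a member's length served as its length-matched background.

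The glycerol lactate cells and the galactose cells were both BY4741, a haploid laboratory strain, in synthetic complete medium with added amino acids, and both were grown at 30 °C to an OD600 of 0.6. The galactose was at 2%, while the study's descriptions differ on the glycerol concentration. Each medium had 1 network, in which the authors had combined 2 biological replicates, so no spread between replicates could be given. A ratio of glycerol lactate over galactose therefore compares 2 libraries, not the conditions, and has no test. Intervals are exact 95% intervals (Poisson for counts, Clopper-Pearson for shares, conditional binomial for ratios). They cover counting error only, and leave out the spread among the fragments of the background. Amplified copies of 1 joint were not removed, so the intervals may be too narrow.

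Histones are the proteins that DNA is wrapped around in the nucleosome. A nucleosome core holds H2A, H2B, H3 and H4, and yeast makes each of them from a pair of genes that are copies of each other. The copies lie in divergent couples, H2A beside H2B and H3 beside H4, each couple transcribed away from a shared promoter, mostly in S phase. HTZ1 encodes the variant H2A.Z, found at promoters and near silent chromatin, and HHO1 encodes the linker histone H1.

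The H2A and H2B genes filled 2 loci with 2 fragments each. On chromosome IV, 464 to 466 kb from the centromere, HTB1 (H2B) lay whole in chrIV:911108-915530, and HTA1 (H2A) lay almost whole in chrIV:915531-916531, with ADK1. On the left arm of chromosome II, 1.38 to 2.91 kb from the centromere, HTA2 (H2A) occupied chrII:234507-235788 with UTP20, and HTB2 (H2B) lay whole in chrII:235789-237570 with ECM15. All positions are 1-based on the reference sequences of the deposited tables, and fragments of a locus are numbered along the chromosome.

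The H3 and H4 genes lay on smaller fragments. On the right arm of chromosome II, 16.6 to 18.7 kb from the centromere, 6 fragments covered chrII:254513-257120, of which the first and the second lay beside HHF1 (H4), the third held 97.8% of its coding sequence, and the fifth and the sixth held HHT1 (H3). On chromosome XIV, 51.2 to 52.8 kb from the centromere, 4 fragments covered chrXIV:575434-577910, the first holding most of HHT2 (H3) and the fourth, with KTR5, 98.4% of HHF2 (H4). HTZ1 had 6 fragments at chrXV:303286-305045, 20.5 to 22.0 kb from the centromere, and the last 3 of them lay beside the gene. HHO1 had 4 fragments at chrXVI:308410-310294, 245 to 246 kb from the centromere, the last of which also held NAN1. Together the histone fragments spanned 17218 bases, and 12 of them named no other gene.

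The uniquely mapped sequences gave 3221104 counts in glycerol lactate and 2338837 counts in galactose. The libraries differed in their makeup. Pairs of adjacent fragments held 73.8% of the counts in glycerol lactate and 53.0% in galactose, other pairs within a chromosome 7.03% and 20.2%, pairs between chromosomes 5.63% and 15.6%, and Mito-nDNA pairs, which join mitochondrial to nuclear DNA, 2.61% and 1.13%. Ratios between the libraries below are therefore of the share a fragment had of its own class of pairs.

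Most counts of the histone fragments joined neighbours on the chromosome. With each pair counted once, glycerol lactate had 5255 adjacent counts, 371 to other fragments of the same chromosome, 648 to other chromosomes and 146 to mitochondrial DNA. In galactose the counts were 2471, 1295, 1454 and 60. Adjacent counts made up 81.4% (80.5 to 82.4) in glycerol lactate and 46.1% (44.8 to 47.5) in galactose. The background is of single fragments, so values set against it are sums over fragments, in which a pair of 2 histone fragments counts for each of them. Intervals of such sums are somewhat too narrow, mainly for adjacent counts. Summed over fragments, adjacent counts were 8352 in glycerol lactate and 3941 in galactose. Their share was 86.9% (86.2 to 87.6) in glycerol lactate, against a median of 87.5% for other nuclear fragments, and 57.1% (55.9 to 58.3) in galactose, against a median of 58.5%. As a group the histone fragments were thus close to the median of other nuclear fragments in each library, and well inside the quartiles of 80.8% and 91.2% in glycerol lactate and of 51.7% and 65.6% in galactose. These medians were not matched for length, and the group held unlike loci. The H2A, H2B, H3 and H4 loci had 84.2% in glycerol lactate and 50.8% in galactose, and HTZ1 and HHO1 together 89.5% and 63.9%. HTA1-HTB1, with 75.7% and 39.4%, lay below the lower quartile in each library.

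The loci separated into 2 kinds when their adjacent counts were set against fragments of like length. The 4 core histone loci had 0.765 (0.741 to 0.790) of the length-matched mean in glycerol lactate and 0.684 (0.653 to 0.716) in galactose. HTZ1 had 1.25 (1.21 to 1.30) times its matched mean in glycerol lactate and 1.09 (1.03 to 1.15) times in galactose, and HHO1 had 1.13 (1.07 to 1.18) and 1.15 (1.07 to 1.23) times. Of the 14 core fragments, 14 lay below their matched median in glycerol lactate and 13 in galactose, while 6 of 6 HTZ1 fragments lay above it in glycerol lactate and 2 of 6 in galactose. No histone fragment changed its share of adjacent counts by over 2-fold between the libraries, in a background where 0.146% of fragments were over 2-fold higher and 0.13% over 2-fold lower in glycerol lactate.

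The low adjacent counts of the core genes were located by taking each MspI site on its own. An adjacent pair of fragments is the count over the site that parts them, and a site never cut and a site cut and rejoined cannot be told apart in it. Over all 12901 adjacent pairs the median was 188 counts (quartiles 162 and 211) in glycerol lactate and 94 counts (77 and 112) in galactose. A site lay inside 6 of the 8 core coding sequences, at base 5 in HTA1, HTA2, HHF1 and HHF2 and at base 98 in HHT1 and HHT2. HTB1 and HTB2 had none.

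All 6 of these sites were low. The HTA1 site had 89 counts in glycerol lactate and 25 in galactose, and the HTA2 site had 109 and 30. The HHF1 site had 121 counts in glycerol lactate and 64 in galactose, and the HHF2 site had 118 and 48. The HHT1 site had 74 counts in glycerol lactate and 29 in galactose, and the HHT2 site had 90 and 32. They fell between the 4.31 and the 9.60 percentile of all adjacent pairs in glycerol lactate and between the 3.27 and the 12.7 percentile in galactose, so the H2A, H3 and H4 genes all lay in the low tail in each library.

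The 5 sites inside the variant and linker genes did not share this. The HTZ1 sites had 276 and 278 counts in glycerol lactate and 136 and 155 in galactose, all above the upper quartile of adjacent pairs. The HHO1 sites had 181, 242 and 238 counts in glycerol lactate, and 86, 157 and 122 in galactose, taken along the chromosome. The 19 sites around the histone coding sequences had medians of 182 in glycerol lactate and 86 in galactose. The lowest of those 19 was the left edge of the HHT1-HHF1 locus, just before chrII:254513, with 16 counts in glycerol lactate and 14 in galactose.

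**Figure D1:**
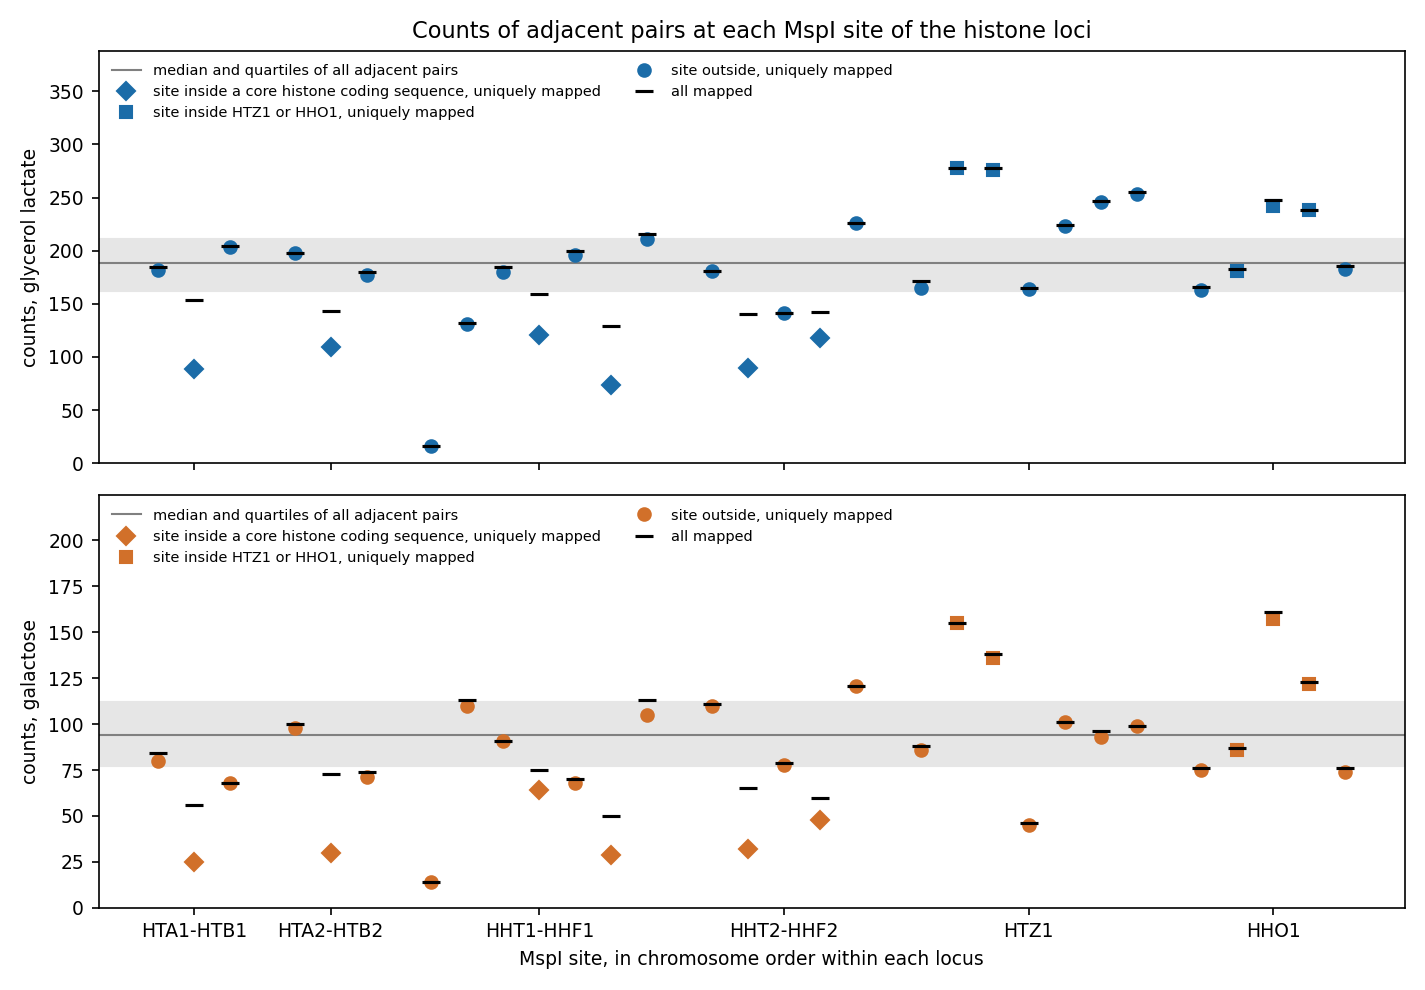
Counts of adjacent fragment pairs at each MspI site of the 6 histone loci, along each chromosome, in glycerol lactate and in galactose (markers, uniquely mapped sequences; dashes, all mapped sequences); the grey band and line are the quartiles and median of all adjacent pairs. The 6 sites inside core histone coding sequences lie at 74 to 121 counts in glycerol lactate and at 25 to 64 in galactose, under the band in each library.

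The same sites gained most when sequences with more than 1 position were let in. The authors deposited a table of all mapped sequences beside that of uniquely mapped ones, and with it the 6 core sites stood at 129 to 159 counts in glycerol lactate and at 50 to 75 in galactose. Their sum was 44.3% larger than the uniquely mapped one in glycerol lactate and 66.2% larger in galactose. The 5 sites in HTZ1 and HHO1, which have no second copy in the list, gained 0.823% and 1.22%, and the 19 sites outside coding sequences gained 1.13% and 2.08%. The core sites thus regained part of the gap to the median of all adjacent pairs. How much sequence the copies share was not tested, as the genome sequence was not used here.

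Beyond the neighbouring fragment, contacts within the chromosome were fewer than the mean of fragments of like length. The sum over the histone fragments was 428 counts in glycerol lactate and 1365 in galactose, which was 0.490 (0.445 to 0.539) of the length-matched mean in glycerol lactate and 0.786 (0.745 to 0.828) in galactose. In glycerol lactate the direction depended on the measure, since against the matched medians the histone fragments stood at 1.14 (1.03 to 1.25). Without pairs of second neighbours they stood at 0.869 (0.773 to 0.973) of the matched mean. Second neighbours held 30.1% of the within-chromosome counts of histone fragments in glycerol lactate, against 59.9% over all nuclear fragments, and 11.8% in galactose, against 16.1%.

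HTA2-HTB2 had the fewest such contacts in glycerol lactate. Its fragments had 12 and 6 within-chromosome counts in glycerol lactate, against 52 and 85 in galactose. The share of the class was 0.274 (0.158 to 0.450) times that in galactose. HTZ1 stood at the other end, with 181 counts in glycerol lactate and 343 in galactose, a ratio of 1.10 (0.915 to 1.32). The other loci had ratios between 0.481 and 0.628, with all intervals below 1. With each pair counted once, HTZ1 stood at 1.02 (0.839 to 1.25), HTA2-HTB2 again at 0.274, and the others between 0.382 and 0.561. Over 2-fold lower in glycerol lactate were 9 of 24 histone fragments and 49.3% of all nuclear fragments, and over 2-fold higher were 0 of 24 and 13.2%. The median ratio was 0.583 for histone fragments and 0.505 for all.

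Fragments of 1 locus also differed among themselves. The HTB1 fragment had 28 within-chromosome counts in glycerol lactate and 94 in galactose, and the HTA1 fragment had 13 and 60. The 6 HHT1-HHF1 fragments had 4, 10, 14, 17, 15 and 11 in glycerol lactate, and 17, 37, 48, 74, 52 and 54 in galactose. The 4 HHT2-HHF2 fragments had 12, 10, 19 and 17 in glycerol lactate, and 23, 49, 51 and 70 in galactose. These core fragments all had fewer counts in glycerol lactate, where the whole class held 226284 counts, against 472628 in galactose. The 6 HTZ1 fragments had 38, 11, 43, 21, 46 and 22 in glycerol lactate, and 67, 29, 93, 41, 69 and 44 in galactose. The 4 HHO1 fragments had 13, 20, 4 and 22 in glycerol lactate, and 73, 56, 42 and 85 in galactose. Against the length-matched mean, HHT1-HHF1 stood at 0.326 (0.255 to 0.411) in glycerol lactate and 0.651 (0.577 to 0.731) in galactose, and HTZ1 at 0.785 (0.675 to 0.908) and 0.889 (0.797 to 0.988). Against the matched medians HTZ1 turned in glycerol lactate, to 1.99, with 5 of 6 fragments above them, and stood at 0.958 in galactose.

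HTA1-HTB1, far out on the right arm of chromosome IV, had more counts with distant fragments of its chromosome than the mean of all fragments, in each library. It had 9 counts per fragment at over 200 kb in glycerol lactate and 12 in galactose, against 1.48 and 4.39 over all nuclear fragments. These were 18 counts in glycerol lactate and 24 in galactose, on 2 fragments. Chromosome IV is long and the HTB1 fragment has 4423 bases, and a match for chromosome length or fragment length was not made. At 10 to 50 kb the histone fragments had 3.75 counts per fragment in glycerol lactate and 22.0 in galactose, against 3.18 and 24.99 over all.

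Contacts with other chromosomes were near or slightly above the length-matched mean. They stood at 1.08 (1.00 to 1.17) times that mean in glycerol lactate and at 1.13 (1.07 to 1.19) times in galactose. Against fragments of like length that also lay at a like distance from a centromere, the galactose value was 0.991 (0.940 to 1.04). With all mapped sequences both values were below the matched mean, at 0.791 (0.766 to 0.817) in glycerol lactate and 0.834 (0.810 to 0.859) in galactose. The core loci had 1.08 (0.980 to 1.19) in glycerol lactate and 1.13 (1.05 to 1.20) in galactose, and the variant and linker loci 1.09 (0.949 to 1.25) and 1.13 (1.04 to 1.23), so the 2 kinds of loci did not separate here as they did for adjacent pairs.

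HTA1-HTB1 held a larger share of all between-chromosome counts in glycerol lactate than in galactose, and both H3-H4 loci and HHO1 held a smaller one. The fragment with HTB1 had 77 counts in glycerol lactate and 89 in galactose, and the HTA1 fragment had 39 and 42. The fragment with most of HTA2 had 39 counts in glycerol lactate and 65 in galactose, and the HTB2 fragment had 62 and 105. The class held 181286 counts in glycerol lactate and 363827 in galactose, so like numbers of counts are a larger share in glycerol lactate. HTA1-HTB1 had a ratio of 1.78 (1.37 to 2.30) and HTA2-HTB2 one of 1.19 (0.923 to 1.53).

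At HHT1-HHF1 the 6 fragments had 6, 22, 20, 19, 23 and 25 between-chromosome counts in glycerol lactate, and 17, 52, 64, 76, 59 and 69 in galactose. At HHT2-HHF2 the 4 fragments had 21, 34, 17 and 32 counts in glycerol lactate, and 47, 85, 59 and 85 in galactose. Each of these 10 fragments had a smaller share of the class in glycerol lactate. The ratio of shares was 0.685 (0.549 to 0.849) at HHT1-HHF1 and 0.756 (0.598 to 0.951) at HHT2-HHF2. Nuclear fragments at like distances from a centromere were also below 1. Their summed counts had a ratio of 0.837 at 15 to 25 kb, inside the HHT1-HHF1 interval. At 45 to 60 kb it was 0.926, inside the HHT2-HHF2 interval.

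HTZ1 stood highest among the loci in between-chromosome counts for its length. Its 6 fragments had 33, 14, 34, 26, 26 and 22 counts in glycerol lactate, and 54, 38, 95, 45, 67 and 59 in galactose. This was 1.40 (1.19 to 1.64) times the matched mean in glycerol lactate and 1.29 (1.16 to 1.43) times in galactose. HTA2-HTB2 was next, with 1.32 (1.08 to 1.61) times in glycerol lactate and 1.26 (1.08 to 1.47) times in galactose, within counting error of HTZ1. At like distance from a centromere HTZ1 stood at 1.32 in glycerol lactate, but at 1.04 in galactose, where HHT2-HHF2 was highest at 1.13. The linker histone gene had few: the HHO1 fragments had 18, 11, 6 and 25 counts in glycerol lactate, and 57, 40, 31 and 59 in galactose, or 0.693 (0.529 to 0.892) and 0.914 (0.788 to 1.06) of the matched mean. The ratio of shares was 0.869 (0.715 to 1.05) for HTZ1 and 0.644 (0.473 to 0.866) for HHO1.

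**Figure D2:**
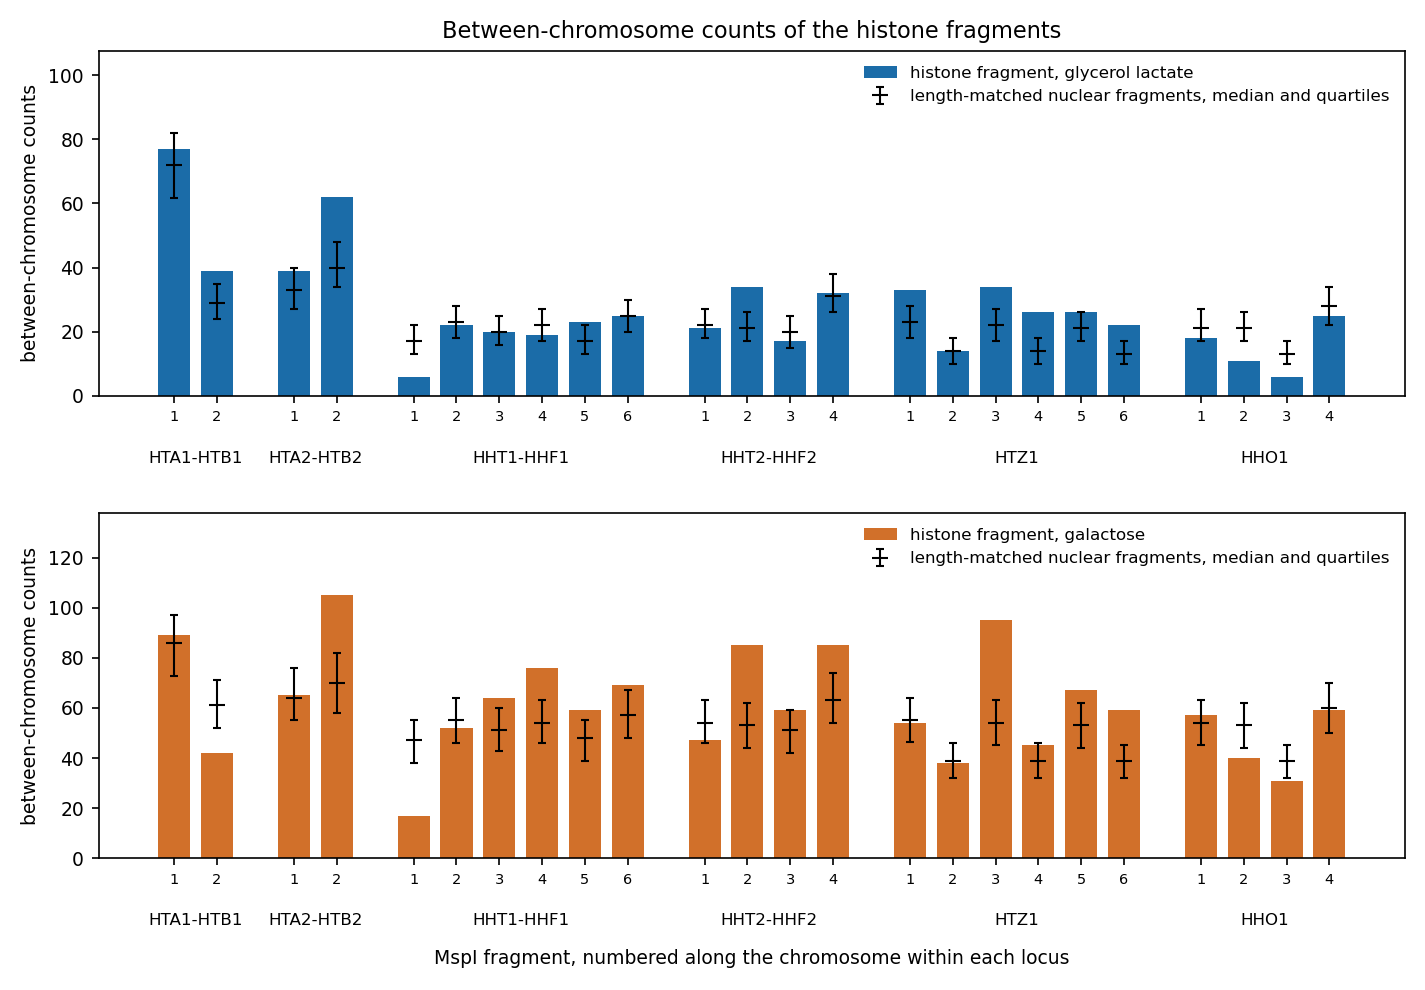
Between-chromosome counts of each histone fragment (bars, uniquely mapped sequences) in glycerol lactate (top) and galactose (bottom), by locus and in order along the chromosome, with the median and quartiles of length-matched fragments. The HTZ1 fragments reach 34 counts in glycerol lactate and 95 in galactose, while the third HHO1 fragment has 6 and 31.

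Between the libraries, 0 of 24 histone fragments were over 2-fold higher in glycerol lactate, where 2.52% of all nuclear fragments were, and 1 of 24 was over 2-fold lower, where 8.69% were. That fragment was the third of HHO1 (0.388, interval 0.132 to 0.945). The median ratio of the histone fragments was 0.767 and that of all nuclear fragments 0.905, and 6 of 24 histone fragments had a ratio above 1, as had 5369 of 13100 nuclear fragments. Single fragments over 200 kb from a centromere had a median of 0.958, with quartiles of 0.719 and 1.25, and their summed counts had a ratio of 1.06. Of the 2 loci at such distances, HTA1-HTB1 lay above these values at 1.78 and HHO1 below them at 0.644. Those fragments were of any length, so the comparison was not matched for length. With all mapped sequences the HTA1-HTB1 ratio was 1.07 (0.944 to 1.21).

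**Figure D3:**
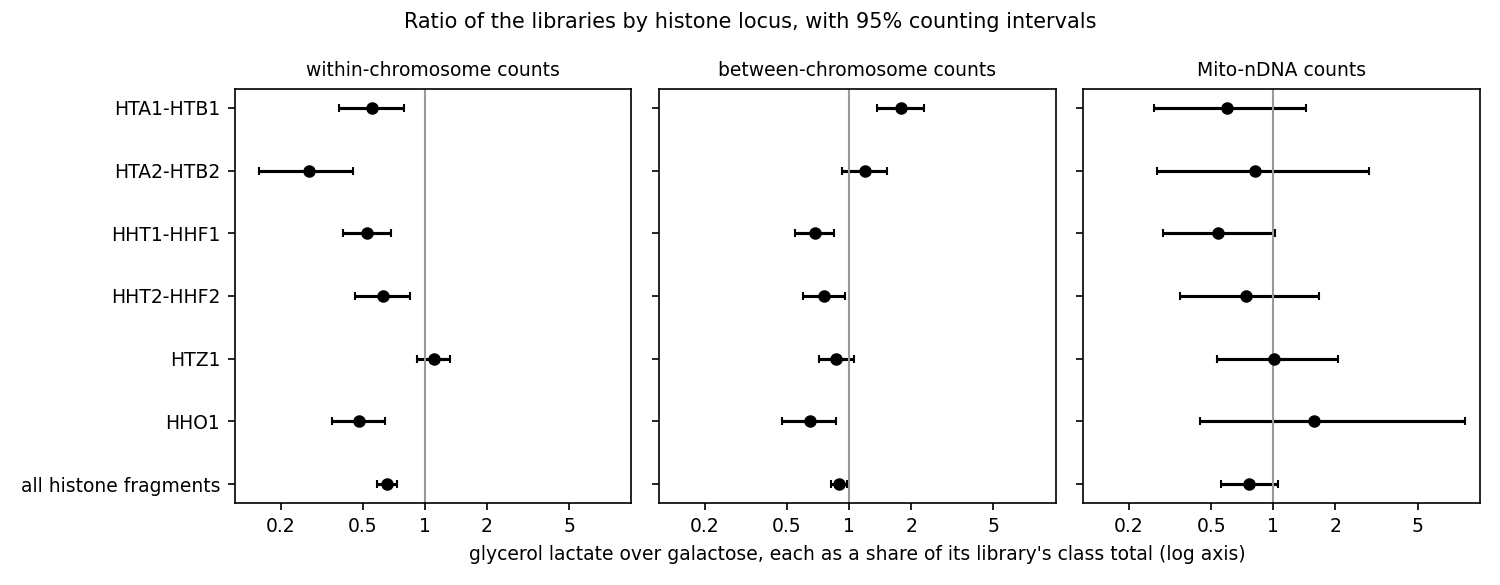
Ratio of glycerol lactate over galactose in the share of within-chromosome, between-chromosome and Mito-nDNA counts for each histone locus and for all histone fragments (points, with exact 95% intervals for counting error; log axis). HTA1-HTB1 lies highest among between-chromosome ratios at 1.78, HTA2-HTB2 lowest among within-chromosome ratios at 0.274, and every locus interval for Mito-nDNA counts includes 1. The ratios are not matched for fragment length.

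The partners of the histone loci on other chromosomes followed the distance of the locus from its own centromere in galactose. Sequence within 30 kb of a centromere makes up 8.02% of the nuclear chromosomes. In galactose HTA2-HTB2, the locus nearest to a centromere, had 39.4% (32.0 to 47.2) of its between-chromosome counts with such sequence. HHT1-HHF1 had 27.9% (23.2 to 33.0), HTZ1 28.2% (23.6 to 33.2), HHT2-HHF2 15.2% (11.2 to 20.0), HHO1 4.81% (2.22 to 8.94) and HTA1-HTB1 3.82% (1.25 to 8.68). The order ran with distance, and HHT1-HHF1 and HTZ1, at like distances, did not differ beyond counting error.

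Other nuclear fragments at the same distances gave like shares. In galactose, fragments within 5 kb of a centromere had 37.3%, those at 15 to 25 kb 26.9%, those at 45 to 60 kb 16.2% and those over 200 kb away 4.52%. The interval of each histone locus included the value at its own distance.

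In glycerol lactate the spread was narrower. HTA2-HTB2 had 10.9% (5.56 to 18.7) of its between-chromosome counts near centromeres, HHT1-HHF1 13.0% (7.49 to 20.6), HTZ1 18.1% (12.4 to 25.04), HHT2-HHF2 14.4% (8.30 to 22.7), HHO1 10.0% (3.76 to 20.5) and HTA1-HTB1 6.03% (2.46 to 12.0). All intervals overlapped but for those of HTZ1 and HTA1-HTB1. The other nuclear fragments had 12.8% within 5 kb, 11.4% at 15 to 25 kb, 9.77% at 45 to 60 kb and 7.69% over 200 kb away. HTZ1 was the locus farthest above fragments at its distance, with an interval that did not include their value. Over all histone fragments the share was 12.6% (10.1 to 15.4) in glycerol lactate and 21.8% (19.7 to 24.0) in galactose, against 8.43% and 9.66% over all nuclear fragments. With all mapped sequences the order of the libraries turned, with 40.3% in glycerol lactate and 37.6% in galactose. HTA2-HTB2 then had 2.65% and 13.8%. All mapped counts hold those between gene copies. HHT1-HHF1, within 30 kb of a centromere, shared 1076 in glycerol lactate and 1033 in galactose with HHT2-HHF2. HTA1-HTB1, far from a centromere, shared 353 and 306 with HTA2-HTB2. Shares without the copies were not tested.

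**Figure D4:**
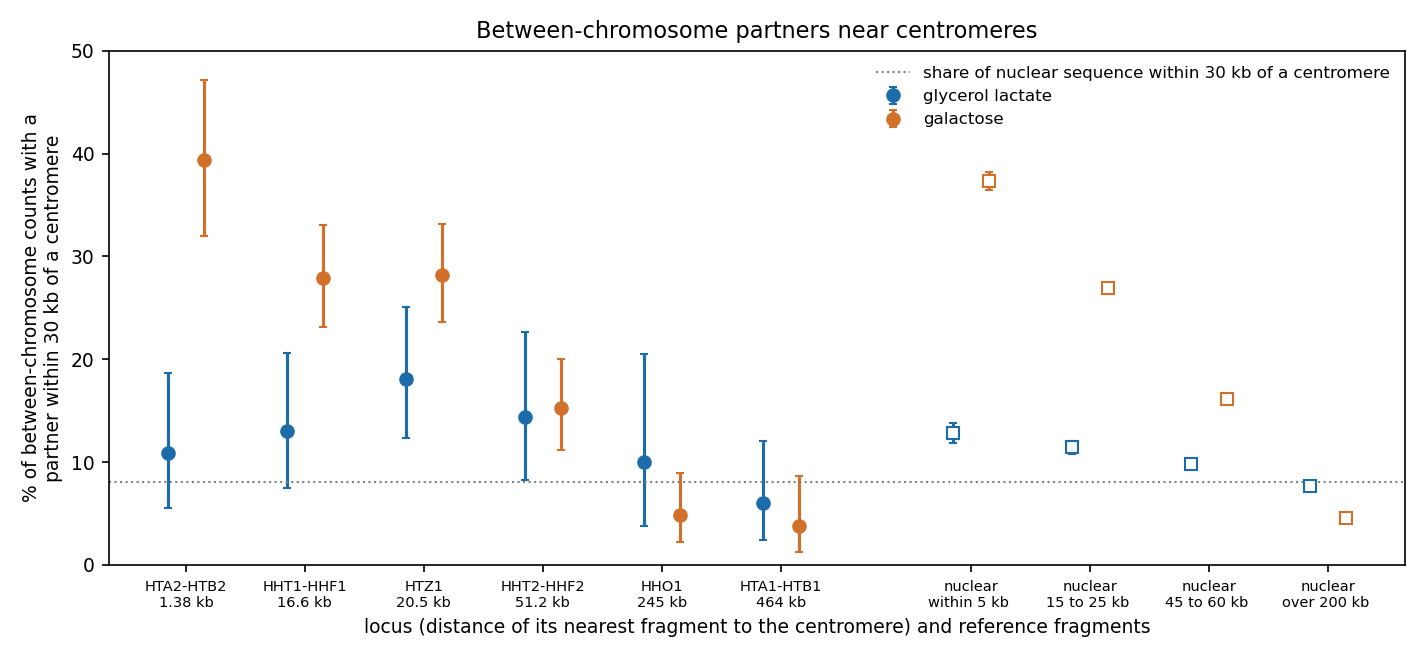
Share of between-chromosome counts with partners within 30 kb of a centromere, for the histone loci in order of their own distance from a centromere and for 4 classes of nuclear fragments by that distance, in glycerol lactate and galactose (points, with exact 95% binomial intervals). The dotted line marks the 8.02% of nuclear sequence in reach; in galactose the shares of HTA2-HTB2 (39.4%) and HTA1-HTB1 (3.82%) lie at opposite ends.

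Single partners were rarely met more than once. In glycerol lactate the histone fragments joined fragments on other chromosomes, histone loci included, in 581 pairs, 8 of which had at least 3 counts. In galactose they did so in 1379 pairs, 5 of which had at least 3 counts. In glycerol lactate 6 of 24 histone fragments had such a pair, against 20.2% of all nuclear fragments, and in galactose 4 of 24, against 14.5%. No partner reached 3 counts in both libraries. At this depth 0 counts in the other library do not show that a partner was absent there.

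The 2 pairs of 4 counts were both in glycerol lactate. The HTB2 fragment joined a fragment in YDL114W at chrIV:255735-256258 with 4 counts, against 0 in galactose. The fifth HHT1-HHF1 fragment, which starts HHT1, joined MSH6 (a mismatch repair gene) at chrIV:641374-642228 with 4, against 0. HTA2 joined CWP2 and CWP1 (cell wall mannoproteins) at chrXI:259142-260870 with 3 counts, against 0, and the HTB2 fragment joined chrIV:80743-81362 with 3, against 0.

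HTZ1 had 4 pairs of 3 counts, all in glycerol lactate. The 3 that were named, each with 0 counts in galactose, joined the first HTZ1 fragment to TAF5 (a subunit of TFIID and SAGA) at chrII:615270-616471 and to MCH1 at chrIV:359702-360931, and the fourth HTZ1 fragment to YAR028W at chrI:184712-186213. HHO1 had no pair above 2 counts in either library, and neither had HTA1-HTB1.

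In galactose the pairs of 3 counts belonged to core genes. The HTB2 fragment joined NTH1 (a neutral trehalase) at chrIV:449961-451203, 0.859 kb from the centromere, with 3 counts, against 0 in glycerol lactate. HTA2 joined chrXI:428655-428805, 11.1 kb from a centromere, with 3 counts, against 0. The HHF1 fragment joined MCM16 (a kinetochore protein) and MSF1 at chrXVI:657311-658018, and the HHF2 fragment joined SIP1 and CAD1 at chrIV:1316079-1318289 and HUL5 at chrVII:240004-241500, each with 3 counts in galactose and 0 in glycerol lactate.

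Contacts among the histone loci themselves were few. Over the 220 possible pairs of fragments on different chromosomes, glycerol lactate had 3 uniquely mapped counts where random pairing by fragment totals gives 0.484, a ratio of 6.20 (1.28 to 18.1). Galactose had 5 counts where it gives 1.20, a ratio of 4.18 (1.36 to 9.76). In glycerol lactate all 3 counts joined loci that are copies of each other: HHF1 with HHF2, HTA2 with HTA1, and the HTB2 fragment with the HTB1 fragment. In galactose 2 of the 5 joined HHT1-HHF1 to HHT2-HHF2, and the other 3 joined HHT1-HHF1 to HTA1-HTB1 and the third HTZ1 fragment to each of HHT1-HHF1 and HTA2-HTB2.

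Without the pairs of copies little remained. Glycerol lactate then had 0 counts (0 to 3.69), where random pairing gives 0.413, and galactose had 3 where it gives 1.03, a ratio of 2.93 (0.604 to 8.55). The 2 loci of chromosome II lie on either side of its centromere, 18.0 to 21.6 kb apart. They shared 0 counts in glycerol lactate, where pairs of fragments on 1 chromosome at like distance and length had 0.697, and 2 counts in galactose, where such pairs had 5.73, a ratio of 0.349 (0.0423 to 1.26). Contacts between histone loci that are not copies were not detectable above those of other fragments at this depth.

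With all mapped sequences the copies dominated. They held 1429 counts in glycerol lactate, 68.5% of the 2085 between-chromosome counts of the core loci with each pair counted once, and 1339 of 2627 counts in galactose, 51.0%. HHT1-HHF1 and HHT2-HHF2 shared 1076 counts in glycerol lactate and 1033 in galactose, and HTA1-HTB1 and HTA2-HTB2 shared 353 and 306. The largest pair was the HHF1 fragment with the HHF2 fragment, with 550 counts in glycerol lactate and 590 in galactose, where the uniquely mapped tables had 1 count in each. The pair of HHT1 with HHT2 fragments that followed had 294 and 314, and HTA2 with HTA1 had 224 and 256. Between histone loci that are not copies on different chromosomes, all mapped sequences gave 0 counts in glycerol lactate and 3 in galactose, the numbers of the uniquely mapped tables.

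The core loci and the variant and linker loci divided in this. All mapped counts between chromosomes were 4.82 times the uniquely mapped ones over the core loci in glycerol lactate and 2.88 times in galactose, with each pair counted once. They were 1.28 and 1.14 times for HTZ1, and 1.33 and 1.16 times for HHO1. In glycerol lactate 9 of 24 histone fragments exceeded 3 times, against 8.46% of all nuclear fragments, and in galactose 6 of 24, against 7.06%. How a sequence with several positions was counted is not stated for the tables, so these counts may hold the same sequence more than once.

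**Figure D5:**
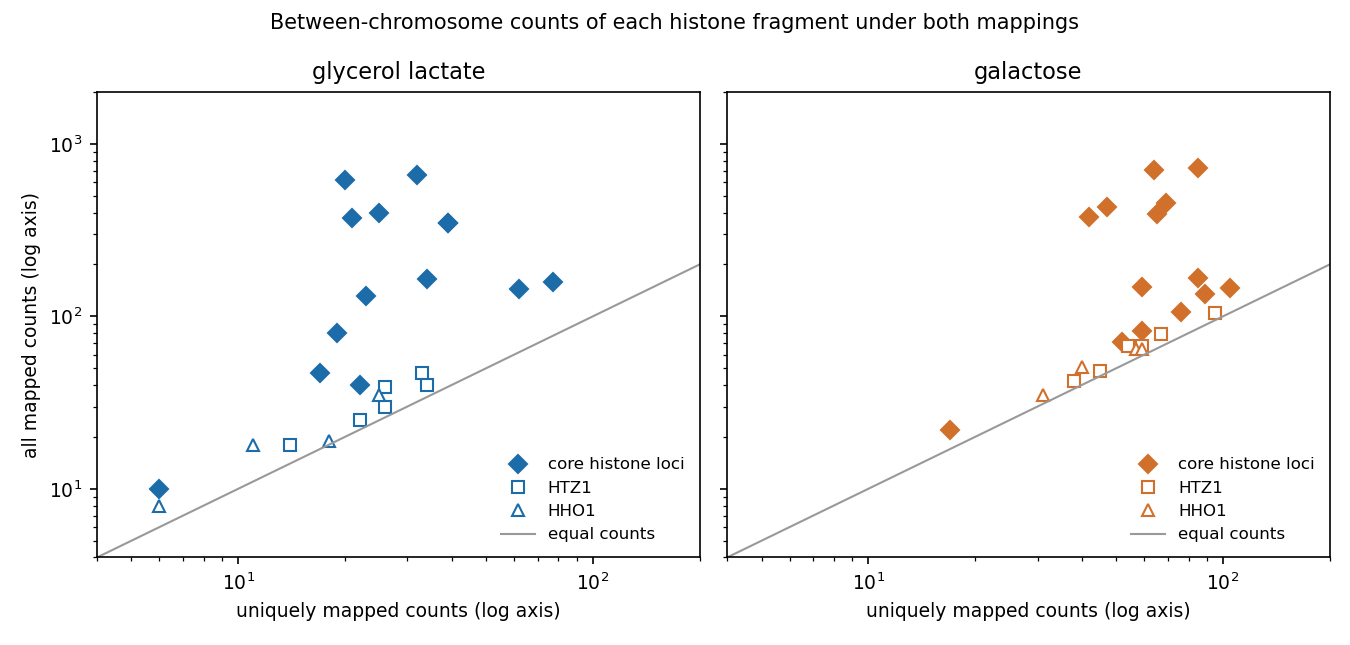
Between-chromosome counts of each histone fragment with uniquely mapped sequences (x axis) and with all mapped sequences (y axis), in glycerol lactate and galactose (log axes). The HHF2 fragment lies far above the line of equal counts, with 658 all mapped and 32 uniquely mapped counts in glycerol lactate, while the HTB2 fragment, with 145 and 62, lies nearer to it.

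Mito-nDNA interactions of the histone fragments were as many as for fragments of like length in glycerol lactate and somewhat more in galactose. They had 146 counts in glycerol lactate, 0.990 (0.836 to 1.16) of the matched mean, and 60 in galactose, 1.38 (1.05 to 1.77) times that mean. In galactose the core loci stood at 1.61 (1.17 to 2.17) times the matched mean, with 44 counts, and the variant and linker loci at 0.984 (0.562 to 1.60), with 16. In glycerol lactate they stood at 0.955 (0.767 to 1.17) and 1.05 (0.796 to 1.36). With all mapped sequences the galactose value of all histone fragments was 1.01 (0.799 to 1.25). It was 1.09 (0.666 to 1.68) over fragments naming no other gene and 1.26 (0.923 to 1.69) over fragments overlapping a histone gene. Without the fragment with the highest count it was 1.32 (0.984 to 1.73). With other length windows, distinct pairs, like centromere distance or the matched medians, the interval stayed above 1.

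Counts per fragment ran from 0 to 15 in glycerol lactate, with a median of 6, and from 0 to 8 in galactose, with a median of 2. By locus, HTA1-HTB1 had 19 Mito-nDNA counts in glycerol lactate and 10 in galactose, and HTA2-HTB2 had 13 and 5. HHT1-HHF1 had 31 and 18, and HHT2-HHF2 had 26 and 11. HTZ1 had 42 and 13, and HHO1 had 15 and 3. As shares of all Mito-nDNA counts the ratio was 0.763 (0.561 to 1.05) over the histone fragments and 0.540 to 1.57 by locus, and each of these intervals included 1. Over the 4 core loci together the ratio was 0.634 (0.437 to 0.932), and over the variant and linker loci 1.12 (0.633 to 2.08).

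The variant gene held the fragments with the most Mito-nDNA counts in glycerol lactate. The fifth HTZ1 fragment, beside the gene, had 15 counts in glycerol lactate and 3 in galactose. The third, which holds the start of HTZ1, had 14 and 0, and the exact interval of its ratio began at 1.04. For the 2-fold call its galactose count was set to 3, which gave a ratio of 1.46 and left it uncalled. Only 8 histone fragments had at least 10 counts over both libraries. Of these, 0 were over 2-fold higher in glycerol lactate, where 20.1% of all nuclear fragments were, and 1 was over 2-fold lower, where 11.6% were. It was the sixth HTZ1 fragment, with 6 counts in glycerol lactate and 4 in galactose (0.470, interval 0.112 to 2.27). Their median ratio was 0.706, against 1.15 for all nuclear fragments.

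Mitochondrial partners were spread over many fragments. The histone fragments joined 81 mitochondrial fragments in glycerol lactate, in 135 pairs, and 41 in galactose, in 57 pairs. The study's cut-off of 3 counts was reached by 1 of 24 histone fragments in glycerol lactate, against 8.58% of all nuclear fragments, and by 0 of 24 in galactose, against 0.566%. The pair joined the fifth HTZ1 fragment to mitochondrial bases 34960 to 35810, between ATP6 and OLI1 (both ATP synthase subunits), with 3 counts in glycerol lactate and 0 in galactose.

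Pairs of 2 counts involved several mitochondrial genes. The third HTZ1 fragment joined COX3 (a cytochrome c oxidase subunit) at bases 78920 to 80507 with 2 counts in glycerol lactate and 0 in galactose. The fragment at bases 17290 to 24261, in COX1 and its intron genes, had 1 count in glycerol lactate and 2 in galactose with the HTB1 fragment, and the same counts with the fourth HTZ1 fragment. SCEI, at bases 60563 to 62559, had 0 counts in glycerol lactate and 2 in galactose with the HTB2 fragment. Mitochondrial genes received 26.7% (19.7 to 34.7) of the Mito-nDNA counts of histone fragments in glycerol lactate, against 25.5% for other nuclear fragments, and 31.7% (20.3 to 44.96) in galactose, against 32.8%. COX1 received 8.90% in glycerol lactate and 16.7% in galactose, against 9.16% and 13.1%, so the histone fragments did not differ from others in this beyond counting error.

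Few genes that regulate the histone genes or carry histones passed 2-fold between the libraries. The list held 26 genes, among them the HIR repressors, the chaperones ASF1 and the CAF-1 subunits, the FACT subunits SPT16 and POB3 and the centromeric H3 variant CSE4, on 87 fragments. Between-chromosome shares were over 2-fold higher in glycerol lactate for 1 of 26 genes and over 2-fold lower for 0, against the 2.52% and 8.69% of single fragments. The gene was SWI6, a cofactor of the cell cycle factors SBF and MBF, with 100 counts in glycerol lactate and 78 in galactose on 1 fragment and a ratio of 2.57 (1.89 to 3.51). The ratios of the list ranged from 0.593 to 2.57 with a median of 1.09, and single nuclear fragments had a median of 0.905. The 2 medians are not directly comparable, since the ratio of a gene is of counts summed over its fragments. Neither the list nor the SWI6 fragment was matched for fragment length.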

How the data were processed

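The GCC networks of the glycerol lactate and galactose libraries were analysed. The values are counts of fragment pairs as deposited by the authors, without normalization. They positioned paired reads without mismatches with SOAP and assembled pairs with Topography 1.19, and gave uniquely mapped and all mapped sequences separately. Uniquely mapped counts were used unless stated. Library totals, given in the report, limit precision through counting error. Each pair is listed in both orders, with 0 lines lacking an equal mirror in the 4 tables, and was counted once for a fragment. Sums over fragments hold a pair of 2 members for each of them, as does the background, and values with each pair counted once are named as such.

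Members and gene lists were chosen with earlier results of these data known. Fragments were matched within 20% of length. Between libraries, counts were divided by the total of their class, and a fragment with at least 10 counts was called past 2-fold. A library with 0 counts was set to 3 for these calls. Partners were named by rule: the 3 with the highest counts per locus and library, of at least 2 counts. Partners given in the report are a subset with the highest counts. With 1 library per medium no test was made. Random pairing gave expected counts from fragment totals. A list of 53 alternatives was tried, with 15 more added later. The steps were tested on simulated data. The software was scipy 1.17.1, numpy 2.4.6, matplotlib 3.10.9 and pandas 2.3.3 under Python 3.11.15.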

Additional observations from a re-analysis of the deposited data

How the results depend on the processing

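Of 132 values under other settings, 82 stayed the same, 41 moved and 9 changed side. A value stayed the same if it lay within the interval of the main value. Numbers of fragments or pairs, which have no interval, stayed the same within 1.5-fold. A change of side was called only where the main interval excluded 1. Values counted as the same can therefore lie on the other side of 1 where that interval included it. Settings described as added were chosen after seeing the data. The cause of a change was not tested. No paired analysis was possible because each medium has 1 combined library.

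The adjacent share became 65.6% in glycerol lactate and 40.1% in galactose with all mapped sequences, 4.46% and 1.92% with distinct pairs in place of counts, and 89.0% and 60.3% over fragments naming no other gene. In galactose it was 55.8% without the fragment with the highest count and, as an added setting, 55.4% over fragments that overlap a histone gene. With each pair counted once, also added, it was 81.4% and 46.1%. Within-chromosome counts over matched fragments were 0.359 and 0.678 with all mapped sequences and 1.06 and 0.875 with distinct pairs. Added settings gave 1.14 in glycerol lactate against the median and 0.869 and 0.832 without second neighbours. Between-chromosome counts over matched fragments were 0.791 and 0.834 with all mapped sequences, and 0.991 in galactose at like centromere distance. The Mito-nDNA value in galactose was 1.01 with all mapped sequences.

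The between-chromosome ratio was 0.712 over fragments naming no other gene and 0.324 per uniquely mapped count of the library. The Mito-nDNA ratio was 1.77 per uniquely mapped count and 4.94 per non-adjacent nuclear count. The HTA1-HTB1 ratio was 1.07 with all mapped sequences and 0.643 per uniquely mapped count, both added. Past 2-fold were 7 of 24 histone fragments with all mapped sequences, against 39.6% of all nuclear fragments, and 22 of 24 per uniquely mapped count, against 85.5%. Past 1.5-fold were 8 of 24, against 32.8%. Mito-nDNA pairs numbered 10 in glycerol lactate and 3 in galactose at a cut-off of 2, and 0 in glycerol lactate at a cut-off of 4.

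Counts among the loci over random pairing were 694 in glycerol lactate and 487 in galactose with all mapped sequences, 0 in both over fragments naming no other gene, and 0 in glycerol lactate without copies, an added setting. The share near centromeres, in added settings, was 9.68% and 15.5% at 20 kb, 21.7% and 32.5% at 50 kb, and 40.3% and 37.6% with all mapped sequences. For HTA2-HTB2 in galactose it was 30.6% at 20 kb and 52.4% at 50 kb, and with all mapped sequences 2.65% in glycerol lactate and 13.8% in galactose. The core sites over the median adjacent pair were 0.761 and 0.665 with all mapped sequences, also added, against 0.533 and 0.404. Depth limits single pairs most, since few exceed 2 counts.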
